A study of Homo sapiens with 6 samples.

Results

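The respiratory chain genes of 8505C cells were compared between cells transfected with control siRNA (siCtrl) and cells transfected with siRNA against NUF2 (siNUF2). The genes were chosen by name among the protein-coding rows whose FPKM averaged 1 or more across the 6 libraries, after the subunits of complexes I to V of the inner mitochondrial membrane, without the assembly factors named AF. The names also took in 4 genes that are not subunits as such, namely COX7A2L (a supercomplex factor), ATP5IF1 (the inhibitor of ATP synthase), the readthrough NDUFC2-KCTD14 and UQCRHL (an intronless copy of UQCRH). This gave 94 genes of the 11725 genes tested and of the 32985 genes in the table. Of these, 13 are encoded by the mitochondrial genome (mtDNA) and 81 by the nuclear genome. A further 5 protein-coding genes of these names were below the filter, the nearest being NDUFA4L2 at a mean FPKM of 0.216, while the lowest inside it was UQCRHL at 3.36, and 56 rows with such names were not protein-coding. The 13 genes of mtDNA all had positive log2 fold changes in siNUF2, with a median of 0.22, against 0.07 over the 81 nuclear genes and 0.01 over all genes tested. None of the 13 passed the test by itself, and 2 of the 81 nuclear genes did (2.47%, against 3.99% of all genes tested). SDHB was among them, higher in siNUF2, and its call was lost when any single library was left out.

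8505C is an anaplastic thyroid cancer (ATC) cell line. Both groups came from this single line, siCtrl cells carry the genotype label WT and siNUF2 cells the label NUF2 knockdown, and RNA was taken 24 h after transfection. Each group had 3 libraries of poly(A) RNA. A single siRNA sequence stands for the knockdown, and the sources used here do not say whether the libraries came from separate cultures, so p-values measure only the spread between these libraries. RNA of whole cultures also cannot tell a change within each cell from a change in the mix of cells.

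Oxidative phosphorylation is carried out by protein complexes drawn from 2 genomes. NADH dehydrogenase (complex I) and succinate dehydrogenase (complex II) pass electrons to ubiquinone, the cytochrome bc1 complex (complex III) passes them to cytochrome c, and cytochrome c oxidase (complex IV) passes them to oxygen. ATP synthase (complex V) uses the proton gradient that complexes I, III and IV build. The mtDNA encodes core subunits of complexes I, III, IV and V and is transcribed as long polycistronic RNAs from both strands. These are cut at tRNAs, and most of the messages are given short poly(A) tails. Complex II is wholly nuclear encoded. The remaining subunits are made in the cytosol and imported.

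Total counts per library were between 61257859 and 69755291. NUF2, a subunit of the NDC80 complex of the kinetochore and the target of the siRNA, had 58.2, 57.0 and 48.4 CPM (counts scaled to library size by TMM) in siCtrl replicates 1 to 3 and 6.08, 8.29 and 6.28 in siNUF2. Its log2 fold change was -2.99 ± 0.17 (SE; adjusted p = 0.00051, quasi-likelihood test of edgeR, Benjamini-Hochberg adjusted over all genes). Of the 8 thyroid markers found in the table only NKX2-1 reached a mean FPKM of 1, at 14.6 to 21.5, and thyroglobulin (TG) was at most 0.0143. KRT7, KRT8 and KRT18 were present at FPKM of 72.0 to 512, while CDH1 was at most 0.0227. VIM lay between 452 and 521. The summed FPKM of 6 epithelial markers was 696 to 751 in siCtrl and 587 to 749 in siNUF2, and that of 4 mesenchymal markers 504 to 561 and 500 to 508. The summed FPKM of 5 leukocyte and endothelial markers was 5.59 to 8.46 in siCtrl and 5.83 to 7.84 in siNUF2, and their part in the results was not tested.

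The messages of mtDNA were far more abundant than those of the nuclear subunits. In siCtrl, the deposited FPKM of the 13 mtDNA genes ranged from 1086 (MT-ND3) to 9319 (MT-ATP8), with a median of 3223. Those of the 81 nuclear genes ranged from 3.49 (UQCRHL) to 267 (NDUFS5), with a median of 30.6. The ratio of the medians was 105 on this scale. FPKM divided the counts by the merged length of all annotated exons of a gene, within 10% for 84 of the 94 genes, and this length was 2.27 times that of the canonical transcript at the median of the nuclear genes. Per length of the canonical transcript, the ratio of the medians was 41.8, and the highest nuclear gene was UQCRH, the hinge protein of complex III. Among the nuclear subunits, the median level per canonical length was highest for complex IV (183 CPM per kb) and lowest for complex III (64.6).

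The 13 mtDNA genes held 6.22%, 5.21% and 5.05% of all counts in siCtrl replicates 1 to 3, and 6.48%, 6.28% and 6.06% in siNUF2. The means were 5.49% ± 0.634 (SD, n = 3) and 6.28% ± 0.210 (SD, n = 3). The groups overlapped, because replicate 1 of siCtrl lay above replicate 3 of siNUF2, while siNUF2 was the higher library in each of the 3 pairs with the same replicate number. The 81 nuclear genes held 0.885%, 0.861% and 0.8998% of the counts in siCtrl and 0.891%, 0.950% and 0.911% in siNUF2. The ratio of mitochondrial to nuclear counts was 7.02, 6.05 and 5.61 in siCtrl and 7.28, 6.61 and 6.66 in siNUF2, so it was higher in siNUF2 in every pair and overlapped between the groups.

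**Figure D1:**
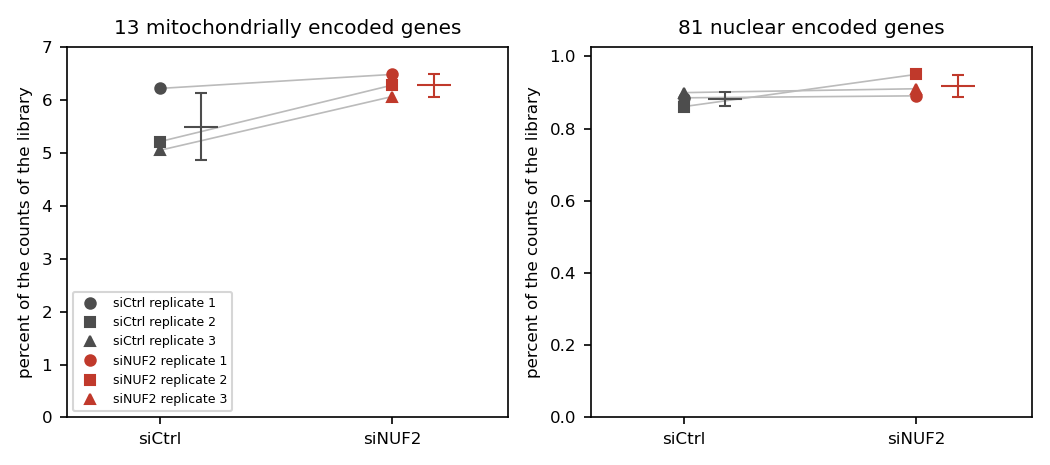
Percent of the counts of each library (y axis) on the 13 mitochondrially encoded and the 81 nuclear encoded respiratory chain genes, for siCtrl (grey) and siNUF2 (red). Circles, squares and triangles are replicates 1, 2 and 3, grey lines join equal replicate numbers, and the bar beside them is the mean with the SD of 3 libraries. The mitochondrial share was higher in siNUF2 in all 3 pairs, with means of 5.49% and 6.28%.

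All 13 mtDNA genes had similar values in siNUF2 against siCtrl, with log2 fold changes of 0.17 (MT-ND5) to 0.26 (MT-CYB). Each of the 13 was higher in siNUF2 in all 3 same-numbered pairs by TMM-scaled CPM, as were 26.5% of all genes tested. In pair 1, however, MT-CO1 and MT-ND4 were nearly equal, with log2 differences of 0.000518 and 0.000872. By deposited FPKM both were lower in siNUF2 in that pair (7217.8 against 7188.8 in MT-CO1, 7217.8 against 7190.6 in MT-ND4). In 3 of the 13 genes all siNUF2 libraries lay above all siCtrl libraries in TMM-scaled CPM, against 12.1% of all genes tested. With edgeR's quasi-likelihood test, 0 of 13 passed an adjusted p of 0.05, 2 had an unadjusted p under 0.05 (8.6% of all genes were higher at that limit), and 0 passed with DESeq2. The direction held for all 13 under each scaling of the libraries, but MT-ND4L was below 0 without siCtrl replicate 3 (-0.08), and MT-ND4L and MT-ND5 were without siNUF2 replicate 1 (-0.20 and -0.04).

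Replicate numbers were taken to pair the libraries across the groups, and using the number as a block in the fit changed these calls. With the block, 5 of the 13 mtDNA genes passed, all higher in siNUF2, where 6.64% of all genes tested did. The 13 are cut from shared long RNAs, so neither these calls nor their equal signs count as 13 independent results. They were MT-CO3, MT-CYB, MT-ND1, MT-ND2 and MT-ATP8, with adjusted p of 0.0237, 0.0311, 0.0235, 0.0310 and 0.0370.

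In complex IV, MT-CO3, a core subunit of cytochrome c oxidase, had CPM of 5059, 4724 and 4729 in siCtrl and 5678, 5926 and 5619.7 in siNUF2. Its lowest siNUF2 library lay above its highest siCtrl library, and its log2 fold change was 0.25 ± 0.08 (SE; adjusted p = 0.155 by edgeR). MT-CO2, which takes electrons from cytochrome c, had 5859, 6085 and 5958 CPM in siCtrl and 6139, 7714 and 7011 in siNUF2. Its groups also did not overlap, with a log2 fold change of 0.22 ± 0.10 (SE; adjusted p = 0.302 by edgeR). With scaling by library size, however, the groups of MT-CO2 overlapped. There siCtrl replicate 2 (8871 CPM per kb) was above siNUF2 replicate 1 (8789). MT-CO1, the subunit that holds the site of oxygen reduction and the mtDNA gene with the most counts, had 13006, 10364 and 10456 CPM in siCtrl and 13011, 12829.9 and 12554.5 in siNUF2. In MT-CO1 the groups overlapped through siCtrl replicate 1.

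In complex III, MT-CYB, the cytochrome b that holds both quinone sites, had 4846.5, 4036 and 4019 CPM in siCtrl and 5238, 5087 and 5145 in siNUF2. The groups did not overlap, with a log2 fold change of 0.26 ± 0.10 (SE; adjusted p = 0.214 by edgeR). In complex I, MT-ND1, next to the quinone channel, had 2407, 1998 and 2030.4 CPM in siCtrl and 2798, 2309 and 2564 in siNUF2. MT-ND2, a proton-pumping subunit, had 3832, 2788 and 2858 CPM in siCtrl and 4215, 3354 and 3782 in siNUF2. In both genes siCtrl replicate 1 was above siNUF2 replicate 2, so the groups overlapped while each pair was higher. MT-ND3, MT-ND4 and MT-ND6 had log2 fold changes of 0.18, 0.19 and 0.23, all with overlapping groups. MT-ND6 is the mtDNA member read from the other strand.

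**Figure D2:**
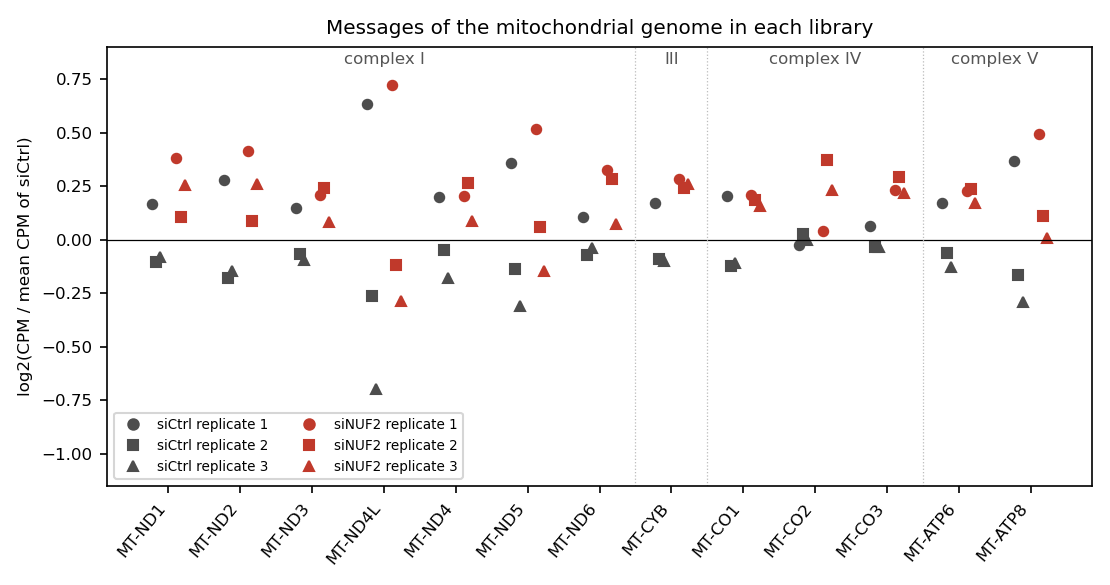
CPM of the 13 mtDNA genes in each library as log2 of the ratio to the mean of siCtrl (y axis), by gene and complex (x axis). Grey points are siCtrl, red points siNUF2, and circles, squares and triangles are replicates 1, 2 and 3. MT-CYB, MT-CO2 and MT-CO3 have every red point above every grey point, and MT-ND4L spreads most between replicate numbers.

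The pair of mtDNA messages that carry overlapping reading frames are shown because their genes share bases. The file's coordinates matched chrM of hg38 (16569 nt). MT-ATP8 and MT-ATP6, both membrane subunits of ATP synthase, overlap by 46 nt at chrM:8527-8572, and MT-ND4L and MT-ND4 of complex I by 7 nt at chrM:10760-10766. The bases of each overlap are in capitals, with 10 flanking bases on either side, on the forward strand.
MT-ATP8/MT-ATP6: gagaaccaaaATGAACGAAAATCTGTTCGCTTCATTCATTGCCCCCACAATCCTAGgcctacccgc
MT-ND4L/MT-ND4: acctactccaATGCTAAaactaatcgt
How reads over these bases were counted is not given in the sources used here.

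Genes of 1 message did not vary alike between libraries. MT-ND4L had 1595, 858 and 635 CPM in siCtrl and 1696, 948 and 844 in siNUF2, and its neighbour MT-ND4 had 11623, 9771 and 8941 in siCtrl and 11629.8, 12159.7 and 10728 in siNUF2. MT-ND4L followed the replicate number in both groups, highest in replicate 1 and lowest in replicate 3. The highest and lowest replicate number differed by 1.17 (log2 of CPM) in MT-ND4L, 0.67 in MT-ND5 and 0.57 in MT-ATP8, against 0.06 in MT-CO3. In 8 of the 13 genes that difference was larger than the log2 fold change between siNUF2 and siCtrl, although by less than 0.01 in MT-CO1 and MT-ND3. In the other 5, MT-CO3, MT-CYB, MT-ATP6, MT-CO2 and MT-ND6, it was smaller. MT-ND4L made up 2.55% of the mtDNA message counts in replicate 1 and 1.32% in replicate 3. Between siNUF2 and siCtrl, by contrast, the share of a gene among the mtDNA message counts was 0.976 to 1.04 times that of siCtrl. MT-CO1 (20.39% and 20.003%) and MT-ND4 (18.28% and 17.97%) had the largest shares and MT-ND3 (0.797% and 0.778%) the smallest in siCtrl and siNUF2.

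**Figure D3:**
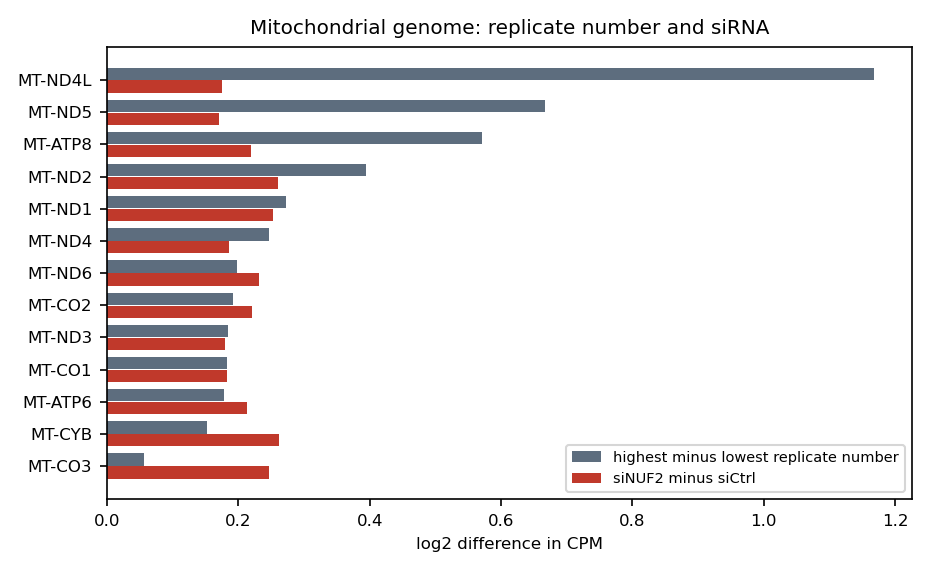
For each mtDNA gene, the log2 difference in CPM between the highest and the lowest replicate number (grey bars, mean of the siCtrl and siNUF2 libraries of a number) and the log2 fold change of siNUF2 against siCtrl (red bars). The red bars lie between 0.17 and 0.26, while the grey bars run from 0.06 in MT-CO3 to 1.17 in MT-ND4L.

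The 81 nuclear genes had a median log2 fold change of 0.07, with 59 above 0. With scaling by library size alone, 51 were above 0 and the median was 0.05. The difference between the mitochondrial and the nuclear median was 0.15 (log2). It was 0.23 without siCtrl replicate 1, 0.07 without siCtrl replicate 3 and 0.09 without siNUF2 replicate 1, and the nuclear median was 0.03 without siNUF2 replicate 2. By pairs with the same replicate number, the median of the mtDNA genes was 0.11, 0.31 and 0.26, and that of the nuclear genes 0.01, 0.16 and 0.02. Of the 81, 2 passed edgeR's quasi-likelihood test with an adjusted p under 0.05, where 3.99% of all genes tested did. All siNUF2 libraries lay above all siCtrl libraries in 16 genes (19.8%, against 12.1% of all genes tested) and below them in 3 (3.7%, against 12.0%). With the replicate number as a block, 6 genes passed higher (7.41%, near the 6.64% of all genes) and 1 lower (1.23%, against 7.91%).

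Complex I held 37 of the nuclear genes, of which 23 were above 0 (21 with scaling by library size), with a median of 0.06. None of the nuclear genes of the chain passed with both libraries of 1 replicate number left out, or under the study's own rule on FPKM, which asks for a fold of 2.

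Of the 29 accessory subunits of complex I, 20 were above 0 (19 with scaling by library size). NDUFB6, of the membrane arm, had 77.0, 75.4 and 78.3 CPM in siCtrl and 92.4, 107 and 97.8 in siNUF2. NDUFS6, a zinc-binding subunit, had 95.5, 94.1 and 112 CPM in siCtrl and 115, 119.7 and 132 in siNUF2. Both had groups that did not overlap. Among the edgeR fits to all 6 libraries with TMM scaling, both passed with the block and not without (adjusted p = 0.0228 and 0.0343, against 0.0799 and 0.217). NDUFA12, which sits on the peripheral arm, went the other way with 36.4, 37.2 and 45.0 CPM in siCtrl and 26.3, 32.3 and 27.9 in siNUF2. Its groups did not overlap, with a log2 fold change of -0.46 ± 0.14 (SE; adjusted p = 0.131, and 0.0438 with the block, by edgeR). NDUFB6, NDUFS6, NDUFA12, NDUFA7, NDUFC2, CYCS, COQ3, ATP5PF, NDUFS7 and NDUFS1 were named after their values were seen.

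NDUFS5, the nuclear gene with the highest deposited FPKM, had 161, 166 and 187 CPM in siCtrl and 174, 202 and 184 in siNUF2, with overlapping groups. The lowest log2 fold change was that of NDUFC2-KCTD14, a readthrough transcript with few counts that shares exons with NDUFC2, at -0.62 ± 0.41 (SE; adjusted p = 0.494 by edgeR). NDUFC2 had a log2 fold change of -0.15, and reads of the shared exons cannot be told apart between the pair. NDUFA7 had a log2 fold change of 0.37 ± 0.13 (SE; adjusted p = 0.172 by edgeR). It overlaps RPS28 on the opposite strand, which had 134615 counts against 10318 for NDUFA7 over the 6 libraries, and whether the counting used strand is not given in the sources used here.

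Complex II, the only complex here without an mtDNA subunit, links the tricarboxylic acid cycle to the chain. SDHB, which carries its iron-sulfur clusters, rose 1.36-fold with 81.5, 74.1 and 73.7 CPM in siCtrl and 107, 95.6 and 109 in siNUF2. The groups did not overlap, and the log2 fold change was 0.45 ± 0.10 (SE; adjusted p = 0.0473 by edgeR's quasi-likelihood test). This call was close to the limit and was lost without any single library (adjusted p from 0.0586 to 0.168 by edgeR). It was also lost with DESeq2 size factors (adjusted p = 0.0508), scaling by library size (0.0581) or without mtDNA genes (0.0533), no filter (0.137), and limma with 1 or 0.1 added (0.0817 and 0.113). It held with DESeq2, the block and the stricter FPKM filter of 5. SDHA, the flavoprotein that oxidizes succinate, had 268, 273 and 246 CPM in siCtrl and 242, 271 and 236 in siNUF2. The groups of SDHA overlapped, and its log2 fold change was -0.07 ± 0.10 (SE; adjusted p = 0.766 by edgeR). SDHA and SDHB form the catalytic head together, and their values of -0.07 and 0.45 differ in sign, but that of SDHA was within its SE of 0.

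The membrane anchors of complex II, SDHC and SDHD, both had positive log2 fold changes. SDHD had 136, 110.2 and 118 CPM in siCtrl and 169, 135 and 145 in siNUF2. Its groups overlapped, each pair was higher, and it passed with the block (adjusted p = 0.0258) and not without (adjusted p = 0.2497, both by edgeR). SDHC had 91.8, 73.0 and 75.3 CPM in siCtrl and 91.5, 90.0 and 84.8 in siNUF2, with overlapping groups.

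Complex III held 10 nuclear genes, 0 of which passed by edgeR, with 0 at an unadjusted p under 0.05. The median log2 fold change was 0.02, with a range from -0.09 to 0.14. UQCRFS1, the Rieske iron-sulfur protein, had the highest value (0.14 ± 0.13, SE). CYC1, cytochrome c1, and UQCRH had values of 0.02 ± 0.11 and 0.01 ± 0.09 (SE), which turned below 0 with scaling by library size. UQCRHL, an intronless copy of UQCRH, had the lowest, -0.09 ± 0.18 (SE), and counts of the copies cannot be told apart where their sequences are alike.

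Complex IV held 12 nuclear genes, and 0 passed by edgeR, with 0 at an unadjusted p under 0.05. All 12 had log2 fold changes above 0, from 0.01 (COX5A) to 0.19 (COX7B), with a median of 0.11, but COX5A and COX6B1 were below 0 with scaling by library size. COX4I1, the subunit that binds adenine nucleotides, had 267, 265 and 271 CPM in siCtrl and 271, 293 and 279 in siNUF2, with a log2 fold change of 0.07. COX8A, the nuclear gene of complex IV with the highest FPKM, had 143, 126 and 144 CPM in siCtrl and 149, 167 and 147 in siNUF2. In both genes siNUF2 was higher without overlap, by a margin that did not pass the test. With scaling by library size the groups of COX4I1 overlapped, as siCtrl replicate 3 (354 CPM per kb) was above siNUF2 replicate 1 (348). Of isoform pairs, COX6A1, COX6B1, COX7A2 and NDUFA4 were expressed. The partners COX6B2, COX7A1 and NDUFA4L2 of the last 3 were below the filter, with mean FPKM of 0.0507, 0.0801 and 0.216. COX4I2 and COX6A2 were not analysed here.

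Complex V held 18 nuclear genes, of which 14 were above 0 (12 with scaling by library size), with a median of 0.08. ATP5MG, subunit g of the membrane domain, had the highest log2 fold change of the complex. It had 109, 86.4 and 115 CPM in siCtrl and 126, 135 and 149.9 in siNUF2, with no overlap and a log2 fold change of 0.41 ± 0.13 (SE; adjusted p = 0.149, and 0.0288 with the block, by edgeR). ATP5MD, which helps dimers of the synthase form, had the lowest value, -0.16 ± 0.10 (SE). The 5 genes of the F1 head and central stalk had a median of 0.02 (-0.00336 with scaling by library size). ATP5F1B, the catalytic beta subunit and the most abundant nuclear message of the complex by FPKM, had 562, 495 and 496 CPM in siCtrl and 552, 515 and 504 in siNUF2, with a log2 fold change of 0.02 ± 0.09 (SE) that turned below 0 with scaling by library size. ATP5MC1, ATP5MC2 and ATP5MC3, which encode the same c-ring protein with different targeting peptides, had values of 0.21, 0.26 and 0.08, none past the test.

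**Figure D4:**
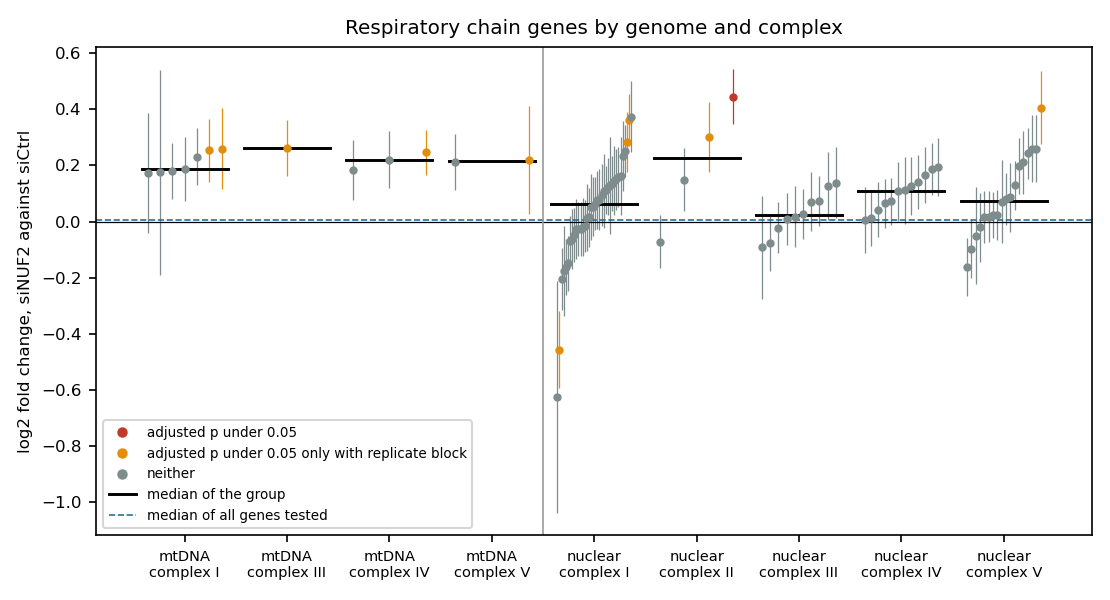
Log2 fold change of siNUF2 against siCtrl with its SE (y axis) for the genes reported here, by genome and complex (x axis). Red points passed edgeR's test without a block, and orange points passed edgeR's test only with the replicate block. Black lines are medians over all genes of a group, and the dashed line is the median of all genes. The 13 mtDNA genes sit between 0.17 and 0.26, while nuclear genes of complex I reach down to -0.62.

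Nuclear respiratory genes are known to be driven by factors such as NRF1, the ETS factor GABP, YY1 and the ERR receptors. Promoters of 66 of the 81 nuclear genes were found in the RefSeq table (GRCh38.p14, 250 bases before to 50 after the start). On either strand, GCATGCGC (NRF1) was in 19.7% of them and in 3.05% of all 35116 promoters, CCGGAAG (ETS) in 30.3% and 10.3%, AAGATGGC (YY1) in 16.7% and 2.89%, and AAGGTCA (ERR) in 13.6% and 3.92%. Among the 8734 promoters of genes tested, the shares were 6.10%, 21.3%, 6.11% and 2.18%. The median log2 fold change was 0.13 for the 13 genes with the NRF1 letters and 0.05 for the 53 without, and it was 0.06 and 0.08 for the 20 with and 46 without the ETS letters. For YY1 it was 0.09 for the 11 with and 0.07 for the 55 without, and for ERR 0.16 for the 9 with and 0.07 for the 57 without. Of the 66 promoters, 30 held none of the letters and 1, that of SDHB, held all 4. It is shown as the promoter of a gene that rose, with the motifs in capitals, at chr1:17053983-17054282 on the minus strand.
SDHB: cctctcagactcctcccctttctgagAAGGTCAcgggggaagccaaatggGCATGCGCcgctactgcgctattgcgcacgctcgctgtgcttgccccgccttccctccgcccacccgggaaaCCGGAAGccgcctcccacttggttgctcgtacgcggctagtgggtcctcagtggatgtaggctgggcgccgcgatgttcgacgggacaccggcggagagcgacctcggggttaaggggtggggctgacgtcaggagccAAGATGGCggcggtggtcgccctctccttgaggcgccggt
The promoter of ATP5PF, a peripheral stalk subunit of ATP synthase, is shown beside it because it holds 3 of the 4 motifs in a gene that did not pass the test (log2 fold change 0.20, with GABPA as a neighbour that overlaps on the opposite strand), at chr21:25735005-25735304 on the minus strand.
ATP5PF: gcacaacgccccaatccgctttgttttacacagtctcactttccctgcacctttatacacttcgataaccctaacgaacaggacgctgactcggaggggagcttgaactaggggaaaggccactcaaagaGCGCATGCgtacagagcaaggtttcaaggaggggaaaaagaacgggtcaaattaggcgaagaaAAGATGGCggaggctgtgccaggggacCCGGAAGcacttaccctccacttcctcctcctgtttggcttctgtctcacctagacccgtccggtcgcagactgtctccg
In SDHB, the YY1 letters start 10 bases after the transcription start and the ETS, NRF1 and ERR letters 128, 200 and 224 bases before it. The promoters of NDUFS7 and SDHD also held 3 of the 4 motifs, with log2 fold changes of -0.02 and 0.30. A match is only a match of letters.

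The genes that serve the chain were taken from lists of carriers, assembly factors and factors of mtDNA expression. Of the 53 assembly factors tested, 2 rose (3.77%) and 1 fell (1.89%), where 1.53% of all genes rose and 2.46% fell, and their median log2 fold change was 0.08. CMC1, which acts with newly made MT-CO1 in complex IV assembly, fell to 0.349 times its siCtrl level. It had 43.9, 43.1 and 50.5 CPM in siCtrl and 14.1, 16.6 and 17.2 in siNUF2 (log2 fold change -1.52 ± 0.13, SE; adjusted p = 0.00209 by edgeR). LYRM7, the chaperone of the Rieske protein, rose from 34.9, 34.3 and 34.4 CPM to 54.8, 46.8 and 53.4 (log2 fold change 0.58 ± 0.11, SE; adjusted p = 0.0261 by edgeR). COX15, of heme A synthesis, rose from 41.1, 37.9 and 35.4 CPM to 53.0, 61.0 and 51.3 (log2 fold change 0.53 ± 0.12, SE; adjusted p = 0.0457 by edgeR). None of the 3 had overlapping groups, and the call of CMC1 held without any single library. The call of COX15 was lost without any of them (adjusted p from 0.0793 to 0.159), and that of LYRM7 without any except siNUF2 replicate 2 (0.0813 to 0.106, both by edgeR). The highest value of the list was that of FMC1, an assembly factor of ATP synthase with few counts, at 0.81 ± 0.28 (SE), not past the test.

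Of the 17 genes of mtDNA transcription and maintenance, 1 rose and 1 fell (5.88% each, against the same 1.53% and 2.46%), with a median of 0.09. TFAM, which packages mtDNA and starts its transcription, fell to 0.48 times its siCtrl level. It had 120.1, 122.6 and 110.2 CPM in siCtrl and 61.7, 50.9 and 56.8 in siNUF2, with a log2 fold change of -1.06 ± 0.11 (SE; adjusted p = 0.00377 by edgeR's quasi-likelihood test). The log2 fold changes of the 13 mtDNA genes and that of TFAM thus had opposite signs, though 0 of the 13 passed the test. TOP1MT, the mitochondrial topoisomerase, rose from 25.8, 23.9 and 22.6 CPM to 33.6, 36.9 and 35.9 (log2 fold change 0.56 ± 0.12, SE; adjusted p = 0.0401 by edgeR). The call of TFAM held without any single library, and that of TOP1MT was lost without any of them (adjusted p from 0.0975 to 0.143 by edgeR).

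Among 21 genes of mitochondrial RNA processing, 0 passed by edgeR, while before adjustment 1 was higher and 2 were lower at 0.05 (4.76% and 9.52%, against 8.6% and 9.56% of all genes) and 2 lower with the block (9.52%, against 7.91%). FASTKD3 had the lowest value (-0.48 ± 0.15, SE) and MTPAP, the mitochondrial poly(A) polymerase, the highest (0.29 ± 0.12, SE). Among 14 mobile carrier genes, 0 passed by edgeR, with 5 at an unadjusted p under 0.05, all higher (35.7%, against 8.6% of all genes). With the block 3 passed higher, CYCS, COQ3 and PDSS2 (21.4%, against 6.64%), and DESeq2 also called 3. CYCS, cytochrome c itself, had 231, 202 and 245.8 CPM in siCtrl and 357, 246.3 and 334 in siNUF2, so the groups did not overlap by a narrow margin (adjusted p = 0.153, and 0.0117 with the block, by edgeR). PDSS2 had the highest (0.63 ± 0.16, SE) and PDSS1 the lowest value (-0.16 ± 0.18, SE), and both encode subunits of the synthase that makes the ubiquinone tail. Among 8 nuclear regulators tested, 0 passed by edgeR. Of these 8, 3 had an unadjusted p under 0.05 (2 higher and 1 lower, against 8.6% and 9.56% of all genes). The block called 1 higher and 1 lower (12.5% each, against 6.64% and 7.91%), and DESeq2 called 2. For carriers and regulators alike, the share of all genes that DESeq2 called is not given here. NRF1 had 18.5, 21.0 and 18.6 CPM in siCtrl and 13.2, 13.3 and 12.7 in siNUF2 (log2 fold change -0.57 ± 0.14, SE; adjusted p = 0.0686, and 0.0260 with the block, by edgeR). MYC had the highest value of that list, 0.53 ± 0.15 (SE; adjusted p = 0.115 by edgeR).

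Ribosomal proteins were read beside the respiratory genes as other large sets of subunits. Of 78 mitochondrial ribosomal protein genes, 2 fell (2.56%, against 2.46% of all genes) and 0 rose, with a median of 0.04. With the block 9 were higher (11.5%, against 6.64%) and 5 lower (6.41%, against 7.91%). MRPS17 fell from 42.04, 44.98 and 38.5 CPM to 23.8, 24.7 and 21.1, and MRPS35 from 77.2, 70.0 and 71.7 to 47.9, 39.7 and 46.1 (adjusted p = 0.0112 and 0.0127 by edgeR). Both belong to the small subunit. Both calls were lost without siCtrl replicate 1 (adjusted p = 0.0523 and 0.0574), and that of MRPS17 also without siNUF2 replicate 1 (0.0514, all by edgeR). Of 82 cytosolic ribosomal protein genes tested, 75 were above 0, with a median of 0.09, close to that of the nuclear respiratory genes. RPL26L1 was the single gene of the list that passed (1.22%, near the 1.53% of all genes called higher). It had 36.5, 33.3 and 32.3 CPM in siCtrl and 68.2, 50.002 and 53.3 in siNUF2 (log2 fold change 0.75 ± 0.14, SE; adjusted p = 0.0271 by edgeR). This call held without siNUF2 replicate 2 and was lost without any other single library (adjusted p from 0.0572 to 0.0955 by edgeR). By pairs, the median of the cytosolic list was 0.03, 0.19 and 0.03, so the second pair stood above the others there as it did in the nuclear respiratory genes.

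**Figure D5:**
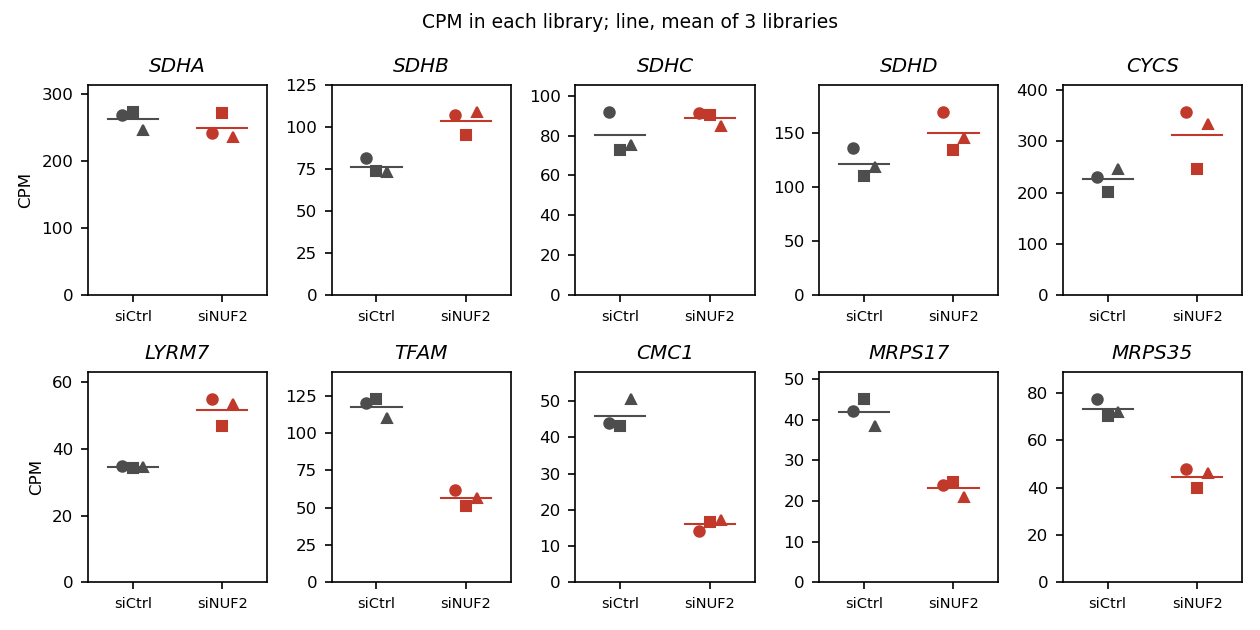
CPM (y axis, from 0) of the 4 genes of complex II and 6 genes that serve the chain in each library of siCtrl (grey) and siNUF2 (red). Circles, squares and triangles are replicates 1, 2 and 3, and lines are means of 3 libraries. SDHB and LYRM7 lie higher in siNUF2, and TFAM, CMC1, MRPS17 and MRPS35 lie lower, each without overlap.

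The antisense strand of the NUF2 siRNA, as the study's methods give it, pairs through its seed (bases 2 to 8) with TATGGAA. In the longest annotated 3′ UTR of each gene (GENCODE release 44), this word was in 16.1% of the genes tested that have a 3′ UTR of at least 50 nt. Of those with it, 10.2% were called lower, and of those without it 1.37%. It was in 8 of the 81 nuclear respiratory genes (9.88%), none of which was called lower, and in 0 of the 13 mtDNA genes. Of the 4 genes of the related lists that fell, all 4 hold it. They are TFAM (2 copies), CMC1, MRPS17 and MRPS35, and the part of this site in their fall was not tested. The copies are shown with 11 bases on either side and the word in capitals, on the strand of the mRNA.
TFAM, first copy: aggatgatgacTATGGAAagagtactctt
TFAM, second copy: gtctgtctgttTATGGAAaaaatttatca
CMC1: tttaccttaatTATGGAAatattaacttt
MRPS17: catgtttatgtTATGGAAaaagaaatttt
MRPS35: gctgagaaaaaTATGGAAataaataaaga
Genes that were not lower hold the word too. It was in 10 assembly factors, 10 mitochondrial and 5 cytosolic ribosomal protein genes, 3 genes of RNA processing and 2 of mtDNA transcription. In that order, the median log2 fold changes with and without it were 0.10 and 0.07, 0.10 and 0.04, 0.08 and 0.10, -0.04 and 0.06, and -0.43 and 0.09. For comparison, 3 genes with the word that were not lower are shown. LYRM7 rose, and NDUFB6 and ATP5MG had log2 fold changes of 0.36 and 0.41. The copy of ATP5MG is at base 1262 of a 3′ UTR of 2716 nt, while its canonical transcript has 1121 nt in all. The longest annotated 3′ UTR need not be the one expressed, and which form these cells express was not tested.
LYRM7: cctagggtcacTATGGAAtaaagaaatcc
NDUFB6: ttggaaaacggTATGGAAaagtatttagt
ATP5MG: tccagttttgtTATGGAAagttatttttt
Of the 8 nuclear respiratory genes with the word, 1 had a log2 fold change below 0, NDUFS1, with 3 copies and -0.20 ± 0.11 (SE). NDUFA12 and NRF1, which had lower values, hold none.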

How the data were processed

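Poly(A) RNA of 8505C cells was sequenced in 3 siCtrl and 3 siNUF2 libraries. The tools named by the authors are fastp for read cleaning, HISAT2 for alignment and StringTie, with the genome build GRCh38. Versions, annotation and strand setting are not given in the sources used here. The deposited table holds read counts per gene, not normalized, and FPKM values made by the authors. The tool that made the counts is not stated.

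Genes of any type with a mean FPKM of at least 1 (11725 genes) were tested on the deposited counts with edgeR 4.0.16 (R 4.3.3), by TMM scaling and the quasi-likelihood test, without a block, with Benjamini-Hochberg adjustment over all genes and a limit of 0.05. CPM are TMM-scaled. Alternatives used DESeq2 1.42.0 and limma 3.58.1 (on log2 of FPKM plus 1 or 0.1), other scalings, other filters, libraries left out, and the replicate number as a block. The scripts were tested on simulated counts. Total counts were 61257859 to 69755291, and libraries of a group differed by more than counting noise (chi-square per degree of freedom at least 60.9).

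The replicate numbers come from the labels. Deviations from the group means correlated at 0.344 to 0.446 between libraries of the same number and at -0.263 to -0.141 between others. Centring each group on its mean makes the others negative once the same numbers correlate, so the negative values add nothing. The numbers were taken to pair the libraries from the positive values, and the labels do not state a pairing.

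The members and gene lists were chosen with earlier results of these data known. The lists of mitochondrial rRNA, tRNA and pseudogene copies were added after seeing the data. Named genes are all mtDNA members, nuclear members past the test, the extremes and most abundant member of each complex, complex II, isoform pairs, CYC1, and in each list the extremes and up to 5 genes past the test. A result that the rule would name is not reported here, though it stays in the counts and medians.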

Additional observations from a re-analysis of the deposited data

How the results depend on the processing

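The median log2 fold change of the mtDNA genes was above 0 under every alternative run, and left-out single libraries moved it from 0.15 to 0.31. The same range was 0.04 to 0.09 for the nuclear genes and 0.07 to 0.23 for the difference of the medians. Without both libraries of replicate 2, the nuclear median was 0.0166. The cause of these changes was not tested. The number of libraries limits the precision, and 3 against 3 cannot go below an exact permutation p of 0.1.

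With the replicate block, 5 mtDNA genes and 7 nuclear genes passed, as did 3 mobile carriers, 5 assembly factors, 2 genes of RNA processing, 2 regulators, 14 mitochondrial and 5 cytosolic ribosomal protein genes. Of all genes tested, 6.64% passed higher and 7.91% lower with the block.

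The number of nuclear genes that passed was 2, and it was 4 with DESeq2, 1 with DESeq2 size factors, library size, limma at either pseudocount, no filter or scaling without mtDNA genes, 0 under the study's rule and 0 without both libraries of replicate 1, 2 or 3. In the settings that gave 1, SDHB did not pass. The number was 1 to 1 without single libraries, where the mtDNA genes gave 0 to 0. DESeq2 called 3 carriers, 5 assembly factors, 2 regulators and 6 mitochondrial ribosomal protein genes. The share of all genes called under DESeq2, limma or the other filters is not given here, so these counts have no background beside them. Limma with 0.1 added gave 1 assembly factor, 1 gene of mtDNA transcription, 1 regulator and 0 cytosolic ribosomal protein genes, and with 1 added 1 gene of transcription and 1 regulator. No filter gave 1 assembly factor, 1 gene of transcription and 0 cytosolic ribosomal protein genes, and a mean FPKM of at least 5 gave 1 gene of transcription. Without single libraries the counts were 0 to 1 carriers, 1 to 2 assembly factors, 1 to 1 genes of transcription, 0 to 0 of RNA processing, 0 to 1 regulators, 0 to 2 mitochondrial and 0 to 1 cytosolic ribosomal protein genes.

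As a percent of summed FPKM, the mtDNA genes held 20.8 in siCtrl and 23.0 in siNUF2, and the nuclear genes 1.29 and 1.31. Of counts on nuclear protein-coding genes, the mtDNA genes were 6.005 in siCtrl and 6.93 in siNUF2, and the nuclear genes 0.964 and 1.01. Without single libraries the percent of counts was 5.13 to 5.72 and 6.17 to 6.38 for mtDNA genes and 0.873 to 0.893 and 0.9007 to 0.9304 for nuclear genes. NUF2 stayed between -3.14 and -2.90.

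Of 56 named genes, 9 changed sign in some setting. With library size, limma at 0.1, limma at 1 and a mean FPKM of at least 5, ATP5F1B was -0.00471, -0.00236, -0.00235 and -0.00479, COX5A -0.0161, -0.0143, -0.0142 and -0.0152, COX6B1 -0.00833, -0.0116, -0.0114 and -0.0077, and UQCRH -0.0134, -0.0133, -0.0132 and -0.0128. CYC1 was -0.00258 with library size and -0.00272 with the filter of 5. Without single libraries, ATP5F1B ran from -0.0232 to 0.0799, COX5A from -0.0696 to 0.0857, COX6B1 from -0.0531 to 0.0868, CYC1 from -0.0693 to 0.0875, UQCRH from -0.0298 to 0.0629, UQCRHL from -0.152 to 0.00596, PDSS1 from -0.304 to 0.0115, MT-ND4L from -0.201 to 0.639 and MT-ND5 from -0.0398 to 0.392.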

Other observations

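The mitochondrial rRNAs, which are cut from the same transcripts as the messages, had values close to theirs. MT-RNR2 had 3673, 4073 and 3163 CPM in siCtrl and 4625, 4467 and 3739.8 in siNUF2, with a log2 fold change of 0.23 ± 0.12 (SE; adjusted p = 0.382, and 0.0343 with the replicate block, by edgeR). The libraries were made from poly(A) RNA, which holds only part of the rRNA. Of 22 mitochondrial tRNA genes, 16 were above 0, with a median of 0.08, and 0 passed by edgeR. Before adjustment 1 was higher at a p under 0.05 (4.55%, against 8.6% of all genes).

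Nuclear pseudogene copies of mtDNA genes had a median log2 fold change of 0.26 over the 8 tested, near that of the mtDNA messages. By edgeR 0 passed, and before adjustment 1 was higher at a p under 0.05 (12.5%, against 8.6% of all genes). MTATP6P1 had 1055, 1005 and 943 CPM in siCtrl and 1172, 1250 and 1191 in siNUF2. Its groups did not overlap, and reads of these copies cannot be told apart from mtDNA reads where the sequences are alike.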
